A study of Mus musculus with 139 samples.

Results

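The data described here come from a single sucrose gradient of native nuclear lysate from untreated mouse embryonic stem cells (ESCs), read as the heavy fractions F7, F8 and F9 against the light fractions F2, F3 and F4. These 6 libraries belong to a series of 139 samples, and the middle fractions F5 and F6 of the same gradient are shown beside them. The genes were those whose values summed to 8 or more over F2 to F9, which held for 12410 of the 52885 genes listed, while 40475 were below that minimum. Just inside it lay Gm7353, with means of 1.34 FPKM in the light and 0.625 in the heavy fractions, and just outside it Fchsd1, with 0.843 and 1.06. Values are FPKM, fragments scaled to transcript length and library size, as the authors deposited them. The cells were AID-FBEXOSC2 ESCs, in which EXOSC2, a core subunit of the RNA exosome, carries an auxin-inducible degron, and the tag is present in untreated cells too. They grew in medium with serum and 1000 U/ml of leukemia inhibitory factor, and the gradient ran from 6% to 40% sucrose. Ribosomal RNA was depleted before the libraries were made. A second gradient, of cells treated for 12 h with 0.5 mM IAA, the auxin that degrades the tagged EXOSC2, and 2 libraries each of the untreated insoluble chromatin fraction (chrRNP) and the cytosol (cyto) served as further readouts. Whether the line is 1 clone is not stated in the labels.

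Sedimentation through sucrose sorts particles mainly by mass and shape, so free small ribonucleoproteins (RNPs) stay near the top, while large assemblies of RNA and protein move toward the bottom. Nuclear RNA is rarely naked: small RNAs sit in stable RNPs, spliced messages are packed into export-ready particles, and unspliced or retained transcripts stay in larger complexes. The RNA exosome trims and degrades many of these nuclear transcripts, including promoter upstream transcripts, introns and precursors of small nucleolar RNAs (snoRNAs).

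The labels do not say from which end the fractions were numbered, so the numbering was read against RNAs of known particles. Free small RNPs had their highest values in F2, and the RNA of the small mitochondrial ribosomal subunit (mt-Rnr1, the 12S rRNA) had its highest value 1 fraction before that of the large subunit (mt-Rnr2, the 16S rRNA). Low numbers are therefore called light. Summed FPKM was highest in F2, at 753233, and lowest in F9, at 131766, and genes of 11 short RNA types held 61.5% of the F2 total against 29.6% to 32.4% of each total from F5 to F9. Between 18978 and 21686 genes were above 0 in each fraction. The read depth is unknown, and the worth of 1 fragment, taken from the steps between low values, differed by less than 2-fold between these libraries. Neighbouring fractions correlated at a Pearson r of 0.912 to 0.963 across genes on the log2 scale, and F2 with F9 at 0.492. All 10 ESC markers were measured, at 222.1 to 3240 FPKM in sum, whereas 7 fibroblast markers summed to at most 56.1 and Col3a1 and Postn were at 0 in every fraction. Among 14 markers of cytoplasm and mitochondria, the sum was 5431 FPKM in F2, 24241 in F4 and 999 in F9, with its highest values in F4 and F5. This set was listed to look for cytoplasm carried over into the nuclear lysate, and RNA of the set was found in every fraction. Whether a given RNA in these fractions came from nuclear or cytoplasmic particles was not tested. In bulk libraries such as these, fewer cells of a type and less RNA per cell cannot be told apart.

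Of the 12410 genes, 6109 were lower in the heavy fractions (49.2% of genes tested) and 1101 were higher (8.87%), by limma on log2(FPKM + 1) with Benjamini-Hochberg adjustment. Here and below, called means an adjusted p under 0.05 in that test, and a difference is the mean log2(FPKM + 1) of F7 to F9 minus that of F2 to F4, which understates the change of low genes. Each fraction is 1 library, so neighbouring fractions stand in for replicates: the p-values and the SE set the ends of 1 gradient against the spread between neighbouring fractions and say nothing of error between gradients. The 3 heavy and 3 light values did not overlap for 6471 genes higher in the light pool (52.1%) and 1484 higher in the heavy pool (12%). The median gene had a difference of -0.76, and the balance of calls, 15.3% of them higher, depended on how the libraries were scaled. With each library divided by the median ratio of its genes, the median was -0.02 and the calls were 3989 higher (32.1%) and 4213 lower (33.9%), or 48.6% higher. With equal totals outside the short RNA types, the median was 0.32, with 4847 higher (39.1%) and 2944 lower (23.7%), or 62.2% higher. In all 3 scalings 1075 genes were called higher and 2939 lower, and 80 genes went from lower to higher, against 0 from higher to lower. Leaving out F3 or F8 reduced the genes called higher to 656 or 663. As deposited, levels peaked in F3, F4 or F5 for most genes (2293, 2781 and 3286 genes), against 908 in F2 and 518 in F8. Peak fractions and steps between fractions, here and below, are those of the deposited values. The rescaled libraries divide F5 by 1.56 and F9 by 0.488, so a peak can lie in another fraction there. The mean fraction number, which weights each fraction by its FPKM, had a median of 4.96 over genes, with 3.83 and 6.06 at the 10th and 90th percentiles, and would be 5.5 for a gene with equal values.

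**Figure D1:**
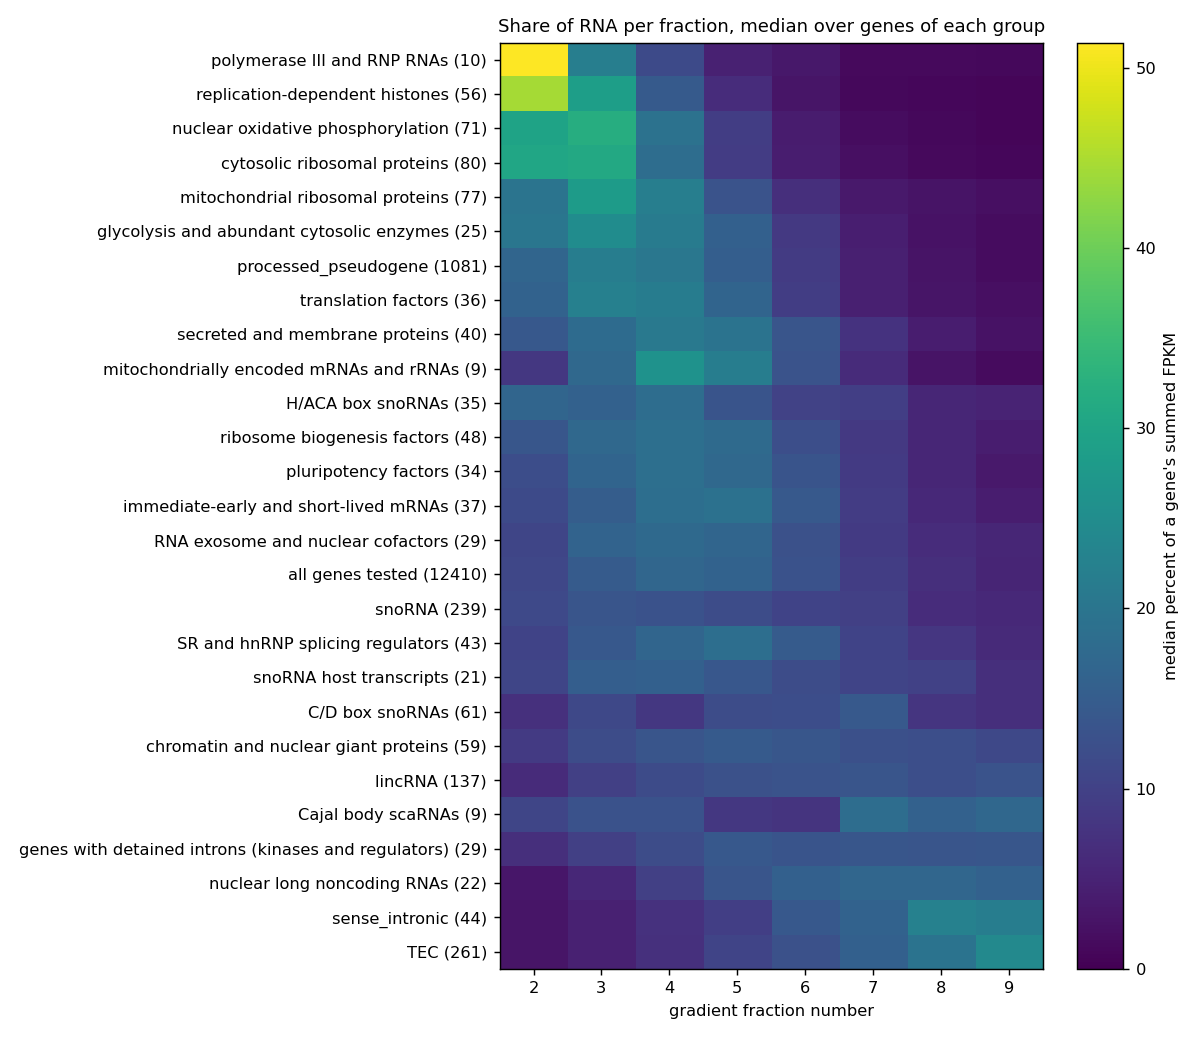
Median percent of a gene's summed FPKM (colour) in each gradient fraction (horizontal axis, F2 to F9) for gene groups (vertical axis, number of genes tested in brackets), ordered by mean fraction. Polymerase III RNAs and histone mRNAs had their largest share in F2, ribosomal protein and oxidative phosphorylation mRNAs in F3, the median gene in F4, and TEC loci in F9.

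Stable small noncoding RNAs made by RNA polymerase III or assembled into compact RNPs lay toward low fraction numbers. Free small RNPs were used to call low numbers light, so their place at that end is not a separate result. Of 11 such RNAs listed, 10 passed the minimum, 6 were lower in the heavy pool and 0 were higher, under each of the 3 scalings. As deposited, 60% were thus lower, near the 49.2% of all genes, and 8.87% of all genes were higher. In the other scalings 33.9% and 23.7% of all genes were lower. The median difference was -2.76, against -0.76 for all genes. Together they held 47.7% of the summed FPKM in F2 and 6.82% in F9. Rpph1, the RNA of ribonuclease P that trims tRNA precursors, was at 182949, 92162 and 48249 FPKM in F2 to F4, 18371 and 7500 in F5 and F6, and 2706, 1860 and 1068 in F7 to F9. Every step down the gradient lowered it, the pools did not overlap, and the difference was -5.74 ± 0.67 (SE), with limma's adjusted p = 0.000175. Rn7sk, the 7SK RNA that holds the elongation factor P-TEFb inactive, was at 96050, 53189 and 22052 FPKM in F2 to F4, 7788 and 3728 in F5 and F6, and 2041, 1490 and 1116 in F7 to F9. It too was lowest in F9, with a difference of -5.01 ± 0.65 (SE) and limma's adjusted p = 0.000306. The Y RNAs, partners of the Ro60 protein, also fell toward the heavy end, but were lowest in F8, with Rny3 at 42343 FPKM in F2 and 709.5 in F8 (difference -4.55) and Rny1 at 7270 and 88.3 (difference -4.65). Terc, the template RNA of telomerase, was at 390.4 FPKM in F2 and 20.6 in F9, a difference of -2.70. The signal recognition particle RNAs Rn7s1 and Rn7s2 were at 0 in F2 and F3 and at 15.1 and 52.8 FPKM in F4, and neither was called. Vaultrc5, a vault RNA, was at 592 FPKM in F2 and 36.0 in F9, a difference of -1.96 that was not called (limma's adjusted p = 0.0527).

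**Figure D2:**
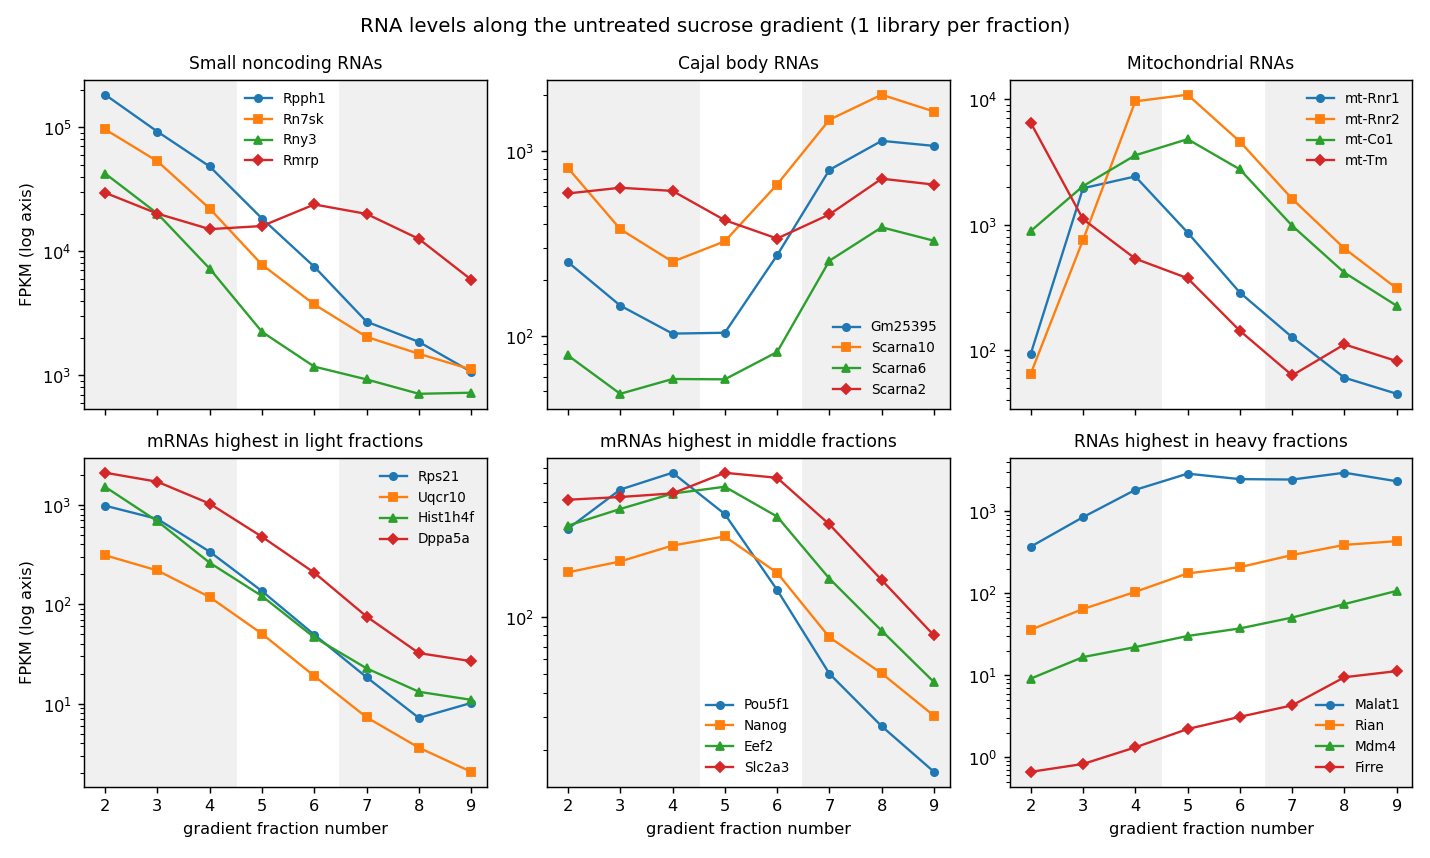
FPKM (vertical axes, log scale) of 24 RNAs in each fraction of the untreated gradient (horizontal axes, F2 to F9), 1 library per point, with the light and heavy pools shaded. Rpph1 falls from 182949 to 1068 FPKM, Gm25395 is lowest in F4 and highest in F8, mt-Rnr1 and mt-Rnr2 peak in F4 and F5, and Rian rises from 36.0 to 433 FPKM.

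Rmrp, the RNA of ribonuclease MRP, which cuts the ribosomal RNA precursor in the nucleolus, was the last of the 4 that were not called. It was at 29631, 20110 and 15082 FPKM in F2 to F4, 15978 and 23850 in F5 and F6, and 20004, 12582 and 5907 in F7 to F9. The profile had 2 maxima, in F2 and F6, and the pools overlapped, with a difference of -0.87 ± 0.63 (SE) and limma's adjusted p = 0.263. Rpph1 and Rmrp share most of their protein subunits, yet in F6 Rmrp was at 23850 FPKM and Rpph1 at 7500. The Rmrp locus (chromosome 4, bases 43492788 to 43493058, mm10) lies wholly inside a lincRNA entry, AL732506.1, at 14534 FPKM in sum, and reads may have been divided between the entries.

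Small RNAs that guide the modification of other RNAs split by class. Small Cajal body RNAs (scaRNAs), which direct the modification of spliceosomal RNAs in the Cajal body, lay toward the heavy end: of 9 measured by name, 3 were higher in the heavy pool and 0 lower, with a median difference of 0.58 against -0.76 for all genes, and 5 and 7 were higher in the other scalings. Their joint share of summed FPKM rose from 0.279% in F2 to 2.55% in F9. In the 12 h IAA gradient 1 of the 9 was called higher and 1 lower, Scarna2 at -1.39. Scarna10 was at 808, 377 and 251 FPKM in F2 to F4, 324 and 657 in F5 and F6, and 1472, 2011 and 1631 in F7 to F9. It was lowest in F4 and highest in F8, the pools did not overlap, and the difference was 1.99 ± 0.51 (SE), with limma's adjusted p = 0.0103, or 0.0534 without F3 and 0.0602 without F8. Scarna6 was at 78.3, 48.5 and 58.4 FPKM in F2 to F4, 58.1 and 81.7 in F5 and F6, and 254, 386 and 326 in F7 to F9. The heavy values were all above the light ones, with a difference of 2.37, and Scarna13, the third of those called, had 1.32. Gm25395, typed as a scaRNA and lying inside the Atg16l1 gene on chromosome 1, was at 250.2, 146 and 103 FPKM in F2 to F4, 104 and 272 in F5 and F6, and 788, 1132 and 1063 in F7 to F9. Its difference of 2.65 ± 0.45 (SE) (limma's adjusted p = 0.00118) was the largest of the 19 genes of that type. Of these 19 tested, 6 were higher and 3 lower, with a median of 0.22. Scarna2 was at 588 FPKM in F2, 336 in F6 and 707 in F8, lowest in the middle, and its difference of -0.03 was not called. The spliceosomal RNAs of the minor spliceosome were spread over the gradient, with Rnu12 between 1782 and 3705 FPKM and Rnu11 between 139.7 and 476, with differences of -0.51 and -0.70 that were not called and were above 0 in the other scalings. Of the 78 snRNA-type genes tested, 23 were lower and 11 higher, against 5 and 12 in the rescaled libraries, so the direction of this type depends on scaling. Summed over the type, the level was 50539 FPKM in F2, 9912 in F8 and 14195 in F9.

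The 2 families of snoRNAs, which guide modification of ribosomal RNA in the nucleolus, differed in position in the untreated gradient. Of 61 C/D box snoRNAs tested (methylation guides), 9 were higher in the heavy pool and 4 lower, with a median difference of -0.07. Of 35 H/ACA box snoRNAs (pseudouridylation guides), 1 was higher and 21 were lower, with a median of -1.39. As deposited, 14.8% of C/D were higher and 6.56% lower, and 2.86% and 60% of H/ACA. Of all genes 8.87% were higher and 49.2% lower, so the H/ACA share called lower was near that of all genes. In the rescaled libraries 13 were higher and 1 lower for C/D and 2 higher and 6 lower for H/ACA, and with equal totals 19 and 1, and 7 and 3, so the direction of the H/ACA calls depends on scaling. The C/D median was the higher one in each scaling, at 0.67 against -0.48 in the rescaled libraries. In the 12 h IAA gradient, however, the medians were close, at -0.38 for C/D and -0.46 for H/ACA. There 6 C/D snoRNAs were called higher and 8 lower, and 3 and 7 H/ACA snoRNAs. No test of the difference between the families was made. Snord17 was at 68.0, 57.7 and 114 FPKM in F2 to F4, 137 and 174 in F5 and F6, and 345, 359.8 and 432 in F7 to F9. The 3 heavy values were the highest of the 8, and the difference was 2.29 ± 0.38 (SE), with limma's adjusted p = 0.00117. Snord118, the U8 RNA needed for maturation of the large subunit rRNA, was at 86.2, 37.4 and 45.7 FPKM in F2 to F4, 55.6 and 52.4 in F5 and F6, and 104, 120.2 and 140.1 in F7 to F9. Here the heavy pool stood above the light one as well, with a difference of 1.18, but the call was lost without F3, F4, F8 or F9, with limma's adjusted p up to 0.147. Snord89, Snord100, Snord49b and Snord15b were also higher, at 2.67, 1.76, 1.79 and 1.48, and so were Snord87, Snord12 and Snord47, each at 0 in F2 and F4. Snord100 and Snord49b had their highest value in F7 rather than at the bottom, while Snord104, which was not called, peaked with 1478 FPKM in F6 against 339.7 in F3 and 311 in F9.

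Among the lower snoRNAs, Snora73b, 1 of 2 copies of the U17 RNA that acts in early cleavage of the rRNA precursor, was at 1431, 917 and 554 FPKM in F2 to F4, 391 and 325 in F5 and F6, and 322, 264 and 235 in F7 to F9. It declined at every step, with a difference of -1.72 ± 0.46 (SE) and limma's adjusted p = 0.0116, and Snora73a ran the same way at -1.91, although neither was called in the other scalings (Snora73b -0.75 in the rescaled one), and Snora73b was not called without F3 or F8 (limma's adjusted p of 0.0501 and 0.0623). The 4 C/D snoRNAs called lower were Snord8 (-3.07), Snord69 (-1.87), Snord67 (-1.54) and Snord22 (-1.31), of which only Snord8 was also called lower in the other scalings. The H/ACA snoRNA called higher, Snora36b, was at no more than 3.59 FPKM in any fraction. Many snoRNAs have near-identical copies or lie in introns of other genes, so values of single ones are uncertain.

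Loci annotated as microRNA precursors went both ways, and the sequences of 5 that stand out at either end are shown, since their letters identify the loci and set them apart from one another. Of 1176 listed, 87 passed the minimum, and 82 of these had an entry among the RefSeq microRNA sequences (GRCm38.p6, the assembly of mm10). In the heavy pool 20 were higher and 4 lower, and 18 of these 24 were at 0 in 1 or more fractions, while the rescaled libraries gave 10 higher and 3 lower. Such low loci can pass the minimum through the fractions in which they are high. The mature sequences follow with the seed, bases 2 to 8, in capitals, and no 2 of them share a seed. Below them stands the hairpin of Mir1983, in which the capitals mark GUUCGANNC, letters of the B box inside genes of polymerase III such as tRNA genes.
mmu-miR-6236: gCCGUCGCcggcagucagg
mmu-miR-2137: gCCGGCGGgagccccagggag
mmu-miR-6538: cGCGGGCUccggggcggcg
mmu-miR-5136: aUAUGCGAgggaacuacugg
mmu-miR-1983: cUCACCUGgagcauguuuucu
Mir1983 hairpin: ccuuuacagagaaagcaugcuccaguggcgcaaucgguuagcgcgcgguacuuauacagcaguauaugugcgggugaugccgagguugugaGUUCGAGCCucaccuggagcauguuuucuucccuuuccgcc

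Mir1983 (chromosome 13, bases 21896918 to 21897049, minus strand) was at 167, 85.7 and 45.4 FPKM in F2 to F4, 23.1 and 19.1 in F5 and F6, and 13.6, 8.50 and 9.68 in F7 to F9. It fell with the polymerase III RNAs, by 2.95 on the log2 scale with limma's adjusted p = 0.000878. GUUCGANNC occurred in 5 of 1005 hairpins in the RefSeq table read on their own strand (0.498%), its reverse complement in 1, and Mir1983 was the 1 hairpin with it among the 74 tested loci that had one; a match of letters is a description only. Mir5136 (chromosome 19, bases 8888699 to 8888774, minus strand), inside the coding gene Lbhd1, was at 7738, 5013 and 2263 FPKM in F2 to F4, 1073 and 678 in F5 and F6, and 269, 143 and 151 in F7 to F9. It was highest in F2, with a difference of -4.62 ± 0.56 (SE) and limma's adjusted p = 0.000213. The other 2 loci called lower were Mir686, at 100.3 FPKM in F2 and at or near 0 from F5 on save for 12.2 in F8, and Mir667, at 0 from F4 on. At the other end, Mir6236 (chromosome 9, mature bases 110281353 to 110281371, plus strand) was at 2.67, 5.28 and 10.4 FPKM in F2 to F4, 818 and 1550 in F5 and F6, and 1096, 880.3 and 187 in F7 to F9. It was low in F2 to F4 and high from F5 on, and its difference was 6.47 ± 0.70 (SE), with limma's adjusted p = 0.000132.

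The same step between F4 and F5 appeared at other loci. Lars2, which encodes the mitochondrial leucyl-tRNA synthetase, was at 3.13, 4.18 and 5.75 FPKM in F2 to F4, 115 and 213 in F5 and F6, and 151, 117 and 25.4 in F7 to F9. The 4 highest values lay in F5 to F8, and the difference was 3.89 ± 0.61 (SE), with limma's adjusted p = 0.00082. Gm37194, typed TEC (an annotation that awaits experimental evidence), was at 0.706 FPKM in F4, 21.6 in F5 and 70.4 in F6. Mir2137 and Mir6538 were at 0 and 0 FPKM in F4 and 31.9 and 23.8 in F5. The 5.8S rRNA entry n-R5-8s1, part of the large ribosomal subunit, was at 1.98, 2.05 and 0 FPKM in F2 to F4, 12.9 and 38.1 in F5 and F6, and 17.6, 51.4 and 15.5 in F7 to F9. Its 5 highest values were those from F5 on, but it was chosen after its values were seen, and the rRNA type as a whole had another profile. Summed over that type, the level was highest in F2, at 823 FPKM, lowest in F5, at 170.4, and 532 in F8, and 2 of 10 entries tested were higher and 0 lower. Ribosomal RNA exists in many near-identical copies and was depleted before sequencing, and whether fragments of it were counted at Mir6236, Lars2 or Gm37194 was not tested, so their values are uncertain. The lincRNA entry Gm26917 had the highest value of any gene in F7 to F9, at 28976, 29699 and 22687 FPKM. In the 12 h gradient it was at 38522 in F7 and was listed at 0 in F8 and F9, so its values are uncertain too.

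RNAs of mitochondria, whose genome encodes rRNAs, tRNAs and mRNAs of the respiratory chain, lay in the light and middle fractions. Of 15 mRNA and rRNA genes listed, 9 passed the minimum, 6 were lower in the heavy pool and 0 were higher, and each peaked in F4 or F5. Under the rescaled libraries 4 were lower, and with equal totals 2. mt-Rnr1 was at 93.4, 1946 and 2416 FPKM in F2 to F4, 865 and 288 in F5 and F6, and 127, 60.5 and 45.0 in F7 to F9. Values in F3 and F4 stood more than 2 times above every other fraction, but F2 lay below F7, so the pools overlapped. The difference was -3.42 ± 1.14 (SE), with limma's adjusted p = 0.0304, and mt-Rnr1 was not called in the other scalings or without F3, F4, F8 or F9 (up to 0.103). mt-Rnr2 was at 64.9, 754 and 9566 FPKM in F2 to F4, 10805 and 4576 in F5 and F6, and 1601, 645 and 310.4 in F7 to F9. The pools overlapped, because F2 was the lowest value of all, and the difference of -0.19 ± 1.56 (SE) was not called (limma's adjusted p = 0.926). mt-Co1, encoding a catalytic subunit of cytochrome oxidase, also peaked in F5, at 4783 FPKM, while mt-Cytb and mt-Nd1 peaked in F4, at 2350 and 2464. The methionine tRNA mt-Tm was at 6468 FPKM in F2 and 535 in F4.

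Messages of histones, ribosomal proteins and respiratory chain subunits formed the light end of the coding genes. All 56 replication-dependent histone genes tested were lower in the heavy pool, in each of the 3 scalings, with a median difference of -4.61, and none overlapped. These messages end in a stem-loop rather than a poly(A) tail and are made in S phase. Hist1h4f was at 1519, 685 and 262 FPKM in F2 to F4, 121 and 46.4 in F5 and F6, and 22.6, 13.2 and 10.9 in F7 to F9. The level dropped at every step, with a difference of -5.36 ± 0.62 (SE) and limma's adjusted p = 0.000178. Of 71 nuclear genes of oxidative phosphorylation, 70 were lower (median -4.05), and the remaining gene, Atp5s, had -0.57 at no more than 2.62 FPKM. Uqcr10, a small subunit of complex III, was at 311, 219 and 118 FPKM in F2 to F4, 50.4 and 18.9 in F5 and F6, and 7.28, 3.60 and 2.06 in F7 to F9. No heavy value reached the lowest light one, and the difference was -5.37. Atp5e (-5.37), Cox8a (-5.25) and Cox6a1 (-5.12) were close to it.

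Of 80 cytosolic ribosomal protein genes, 75 were lower and 2 were higher, with a median of -3.74, and 72 and 66 were lower in the other scalings. Rps21 was at 982, 722 and 338 FPKM in F2 to F4, 136 and 49.4 in F5 and F6, and 18.4, 7.17 and 10.2 in F7 to F9. The 3 light values were all above the heavy ones, with a difference of -5.68 ± 0.50 (SE) and limma's adjusted p = 7.18e-05. Rps27rt, Rplp1 and Rps27l had differences of -5.91, -5.59 and -5.49. The 2 that were higher were at low levels, and neither Rps12 nor Rpl9 was called without F8 (limma's adjusted p of 0.0746 and 0.0510). Rps12 was at 1.00, 2.01 and 0.859 FPKM in F2 to F4, 1.95 and 2.33 in F5 and F6, and 2.25, 3.20 and 3.61 in F7 to F9, and its span holds Snora33 and Snord100. Rpl9 was at 3.92, 4.64 and 3.17 FPKM in F2 to F4, 5.62 and 5.68 in F5 and F6, and 9.11, 9.09 and 7.01 in F7 to F9, with a difference of 0.94. Many ribosomal protein genes have processed pseudogenes of near-identical sequence, and reads may have been divided among them: 825 of 1081 processed pseudogenes tested were also lower, with a median of -1.85. All 77 mitochondrial ribosomal protein genes were lower (median -2.68), 48 of them peaking in F3, and 71 and 66 stayed lower in the other scalings.

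Abundant housekeeping messages lay deeper than those of histones, oxidative phosphorylation and cytosolic ribosomal proteins, and near those of mitochondrial ribosomal proteins. Of 36 translation factor genes, 27 were lower and 0 higher (median -2.60), and of 25 genes of glycolysis and other abundant enzymes 24 were lower (median -2.95). Eef1a1, the elongation factor that delivers tRNA, peaked in F3 at 1479 FPKM and was at 43.4 in F9 (difference -4.07). Eef2, the translocation factor, had its highest value in F5 at 480.5 FPKM (difference -2.09), as did Pabpc1, the cytoplasmic poly(A) binding protein, at 649.8, which was not called (-1.41). The enzyme gene called higher was Ppia, cyclophilin A, at 2.27 to 6.94 FPKM, although this protein is among the most abundant in cells. Of 40 secreted and membrane proteins, 34 were lower and 32 peaked in F4 or F5 (18 and 14), while 24 were lower in the rescaled libraries and 15 lower and 2 higher with equal totals. Spp1, osteopontin, was highest in F4 at 482 FPKM, and Slc2a3, a glucose transporter, in F5 at 569, with differences of -3.46 and -1.44.

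Pluripotency factors were found from the lightest to the heaviest fractions. Of 38 listed, 34 passed the minimum, 20 were lower and 2 higher, and the median was -1.29. These shares, 58.8% lower and 5.88% higher, were near the 49.2% and 8.87% of all genes tested. The rescaled libraries gave 15 lower and 6 higher, and equal totals 12 and 8. Dppa5a, a short RNA-binding protein of ESCs, was at 2110, 1711 and 1030 FPKM in F2 to F4, 478 and 208 in F5 and F6, and 75.2, 32.2 and 26.8 in F7 to F9. It was highest in F2, with a difference of -5.23 ± 0.50 (SE) and limma's adjusted p = 8.33e-05. Pou5f1, which encodes OCT4, was at 289.6, 464 and 569 FPKM in F2 to F4, 346 and 139 in F5 and F6, and 50.4, 26.8 and 15.4 in F7 to F9. Its peak was in F4, and the pools did not overlap, with a difference of -3.89 ± 0.49 (SE) and limma's adjusted p = 0.000259. Nanog was at 171, 195 and 237 FPKM in F2 to F4, 264 and 170.3 in F5 and F6, and 78.3, 50.6 and 30.4 in F7 to F9. As deposited, Nanog peaked 1 fraction deeper than Pou5f1, an order that depends on scaling. Its difference was -1.99 ± 0.41 (SE), with limma's adjusted p = 0.00348, but it was not called with equal totals (Nanog -0.58). Tfcp2l1, a transcription factor of naive ESCs, was at 36.0, 45.2 and 48.4 FPKM in F2 to F4, 55.3 and 69.6 in F5 and F6, and 110.2, 139 and 86.4 in F7 to F9. This gene was highest in F8, with a difference of 1.34 ± 0.33 (SE) and limma's adjusted p = 0.00795, and Lin28b was the other gene called higher (0.92). The Tfcp2l1 span also holds the snRNA entry Gm23497, at 46.0, 64.7 and 43.2 FPKM in F7 to F9. Immediate-early and short-lived messages (37 tested, 25 lower, 0 higher, median -1.12) had most of their peaks in F4 and F5. So did ribosome biogenesis factors (48 tested, 37 lower, 0 higher, median -1.31). As deposited, 67.6% and 77.1% of these 2 groups were lower, against 49.2% of all genes. In the rescaled libraries 13 and 21 were still called lower. With equal totals 7 of 37 and 14 of 48 were lower, around the 23.7% of all genes, so neither group stood out there. SR and hnRNP splicing regulators (43 tested, 17 lower, 0 higher, median -0.68) had 24 peaks in F5. In this last group 39.5% were lower as deposited, against 49.2% of all genes. For it the rescaled libraries gave 14 higher and 8 lower, so its direction depends on scaling.

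Among 10062 coding genes, position varied with the span of the gene on the chromosome, introns included, since transcript lengths were not given. Coding genes were divided into 5 groups of equal size by span. In the shortest group (165 to 7780 bases) the median difference was -1.76, with 77.8% of genes lower and 2.04% higher. In the longest group (62444 bases or more) it was -0.08, with 23.1% lower and 12.2% higher. The groups between had medians of -1.06, -0.78 and -0.44, so the median rose at each step. Spearman's correlation of span and difference was 0.471 across these genes, and 0.494 in the 12 h gradient, as a description, since genes are not replicates. Summed FPKM correlated with the difference at -0.449, and the groups also differed in it, from a median of 58.2 in the shortest to 41.9 in the longest. The part of level in the relation with span was not tested.

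**Figure D3:**
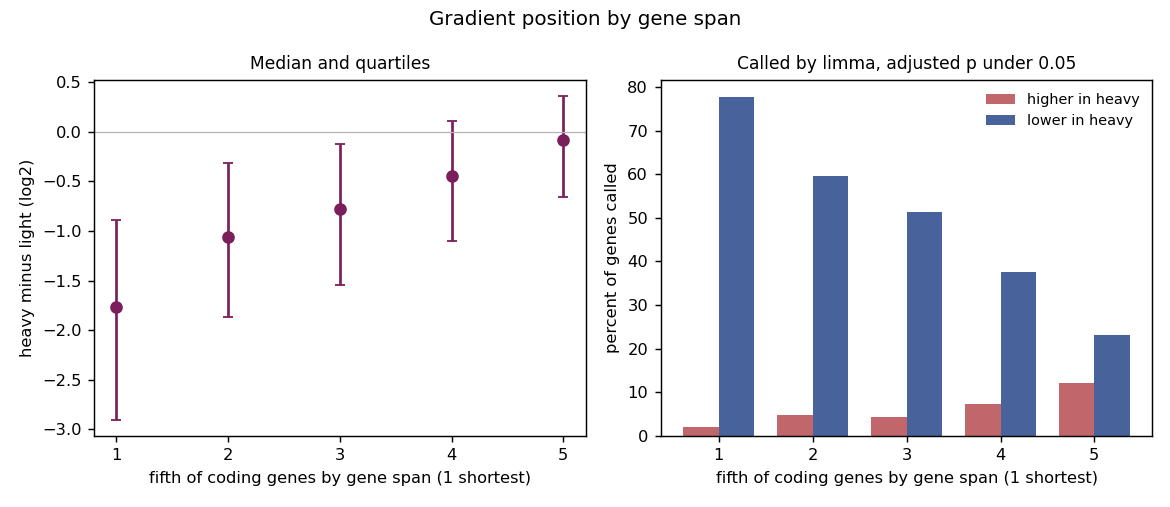
Heavy minus light difference (left, log2, median with quartiles) and percent of genes called by limma (right) in 5 equal groups of coding genes by gene span (horizontal axes, 1 shortest to 5 longest). The median rises from -1.76 to -0.08, and the percent called lower drops from 77.8 to 23.1.

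Nuclear long noncoding RNAs, transcripts that act or accumulate in the nucleus, lay toward the heavy end. Of 35 listed, 29 were in the table and 22 passed the minimum. Among these, 16 were higher in the heavy pool and 0 lower, with a median difference of 1.25 against -0.76 for all genes, and 20 and 21 were higher in the other scalings. All members listed, the low ones included, held 0.0643% of the summed FPKM in F2 and 2.31% in F9. Malat1, which resides at nuclear speckles, was at 371, 850.0 and 1831 FPKM in F2 to F4, 2886 and 2475 in F5 and F6, and 2446, 2963 and 2331 in F7 to F9. As deposited, values from F5 on formed a plateau above every light one, with a difference of 1.62 ± 0.61 (SE) and limma's adjusted p = 0.0481. Malat1 was called only narrowly, and was not called without any of F2, F3, F7, F8 or F9 (up to 0.167). Neat1, the scaffold of paraspeckles, was at 13.7, 22.9 and 39.4 FPKM in F2 to F4, 58.3 and 84.5 in F5 and F6, and 78.4, 56.7 and 46.4 in F7 to F9. It peaked in F6, and its difference was 1.31 ± 0.42 (SE), with limma's adjusted p = 0.0262, or 0.0636 to 0.0806 for Neat1 without F2, F3, F7 or F8. Thus the heavy values of both lay above the light ones, but as deposited neither was highest at the bottom. The rescaled libraries divide F5 by 1.56 and F9 by 0.488, so the place of both peaks depends on scaling.

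Imprinted noncoding RNAs of the Dlk1-Dio3 region, which are expressed from the maternal chromosome, were higher toward the bottom. Rian was at 36.0, 64.4 and 104 FPKM in F2 to F4, 175 and 209 in F5 and F6, and 293, 391 and 433 in F7 to F9. Each fraction exceeded the one before, with a difference of 2.54 ± 0.45 (SE) and limma's adjusted p = 0.00157. Meg3 and Mirg of the same region had differences of 1.95 and 1.20, with 5.01 and 4.99 FPKM in F2 and 44.6 and 26.0 in F9. Firre, an X-linked RNA tied to nuclear architecture, was at 0.665, 0.829 and 1.32 FPKM in F2 to F4, 2.21 and 3.12 in F5 and F6, and 4.30, 9.48 and 11.3 in F7 to F9. Its mean fraction of 7.42 was the highest of the named long noncoding RNAs, with a difference of 2.20 ± 0.33 (SE) and limma's adjusted p = 0.000681. Kcnq1ot1, which silences imprinted neighbours, Tsix, the antisense partner of Xist, and Tug1 were higher by 1.22, 1.20 and 1.69. No source used here says whether counting used strand, so reads of Tsix and Xist may not be separate. Of 21 snoRNA host transcripts tested, 8 were lower and 2 were higher: Snhg11 (1.75) and Snhg17 (1.62), while Gas5 had -0.76 and was not called. As deposited, 38.1% of these hosts were lower and 9.52% higher, against 49.2% and 8.87% of all genes. In the rescaled libraries 7 of these hosts were higher and 3 lower, so their direction depends on scaling.

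Loci annotated as TEC or sense_intronic, short entries that mostly lie inside other genes, were nearly all higher at the heavy end. Of 3069 TEC entries 261 passed the minimum, and 233 of these were higher in the heavy pool and 2 lower (Gm10252, -1.85, and Gm38058, -0.52), with a median of 1.15. Of 309 sense_intronic entries 44 passed, and 38 were higher and 0 lower, with a median of 1.14. Low loci can pass the minimum through the fractions in which they are high, so the sum over all entries, low ones included, is the fuller measure. For TEC it increased at every step from 270.1 FPKM in F2 to 1752 in F9, or from 0.0359% to 1.33% of the library. For sense_intronic entries it was 99.9 FPKM in F2, 84.3 in F3 and 303 in F9. TEC and sense_intronic loci made up 21.2% and 3.45% of the 1101 genes called higher, and coding genes 55.8%.

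Of the 261 TEC loci, 230 lay within the span of a coding gene, and in 227 cases that gene was tested too. The loci had a median difference of 1.17 and the coding genes around them -0.09, and the locus stood above its gene in 215 of the 227 pairs. Coding genes with a quartile range of -0.94 to 0.52 thus held loci with one of 0.94 to 1.37. For sense_intronic loci the medians were 1.14 and -0.19, and the locus was above the gene in 42 of 43 pairs. The TEC locus 2700078F05Rik, inside Enah, a regulator of actin, was at 4.23, 6.93 and 9.52 FPKM in F2 to F4, 15.6 and 16.1 in F5 and F6, and 17.1, 17.3 and 22.0 in F7 to F9. Enah itself was at 32.7, 59.7 and 92.3 FPKM in F2 to F4, 114 and 121 in F5 and F6, and 105, 77.3 and 56.1 in F7 to F9, with differences of 1.37 and 0.44. Of small RNAs inside coding genes, snoRNAs were above their gene in 109 of 169 pairs, with medians of -0.65 and -1.12, and microRNA loci in 63 of 87. These pairs share fractions and scaling, the use of strand in counting is not known, and no test was made on them. All loci in the pairs passed the minimum, which low loci can do through the fractions in which they are high. How far that selection sets the gap between locus and gene was not tested.

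**Figure D4:**
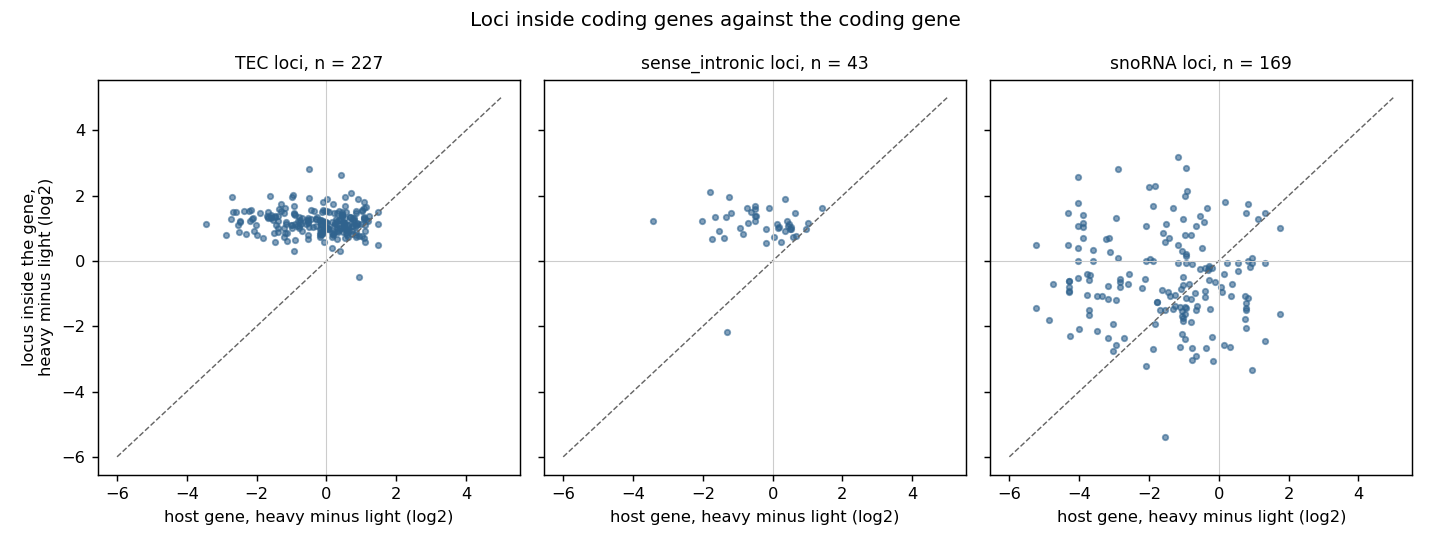
Heavy minus light difference of loci inside coding genes (vertical axis, log2) against that of the coding gene (horizontal axis, log2), 1 point per pair, for 227 TEC, 43 sense_intronic and 169 snoRNA loci, with the line of equal values dashed. TEC loci have a median of 1.17 and their genes of -0.09, and 215 of 227 points are above the line. Only loci that passed the minimum sum are shown.

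Coding genes at the heavy end included those known to keep introns. Detained introns are spliced late or not at all, which holds the transcript in the nucleus. Of 29 such genes tested, 12 were higher and 4 lower, with a median of 0.48, and 21 and 25 were higher in the other scalings. Pnisr, which encodes a nuclear SR-type protein, was at 3.25, 6.14 and 8.44 FPKM in F2 to F4, 11.9 and 19.9 in F5 and F6, and 25.2, 36.7 and 40.4 in F7 to F9. The level rose from fraction to fraction, with a difference of 2.39 ± 0.36 (SE) and limma's adjusted p = 0.000633. Fnbp4 (1.83), Nktr (1.70), the cyclin Ccnl1 (1.33), the splicing kinase Clk4 (1.03) and Ogt, the O-GlcNAc transferase (0.84), were also higher. The 4 lower ones were Atf4, Ddx5, Gtf2i and Cirbp, at -2.22, -1.36, -1.18 and -0.89, and Atf4 alone of them was called lower in the rescaled libraries. Mdm4, a negative regulator of p53, was at 9.12, 16.7 and 22.1 FPKM in F2 to F4, 30.2 and 37.3 in F5 and F6, and 50.7, 74.1 and 107 in F7 to F9. It was highest in F9 and lowest in F2, with a difference of 2.22 ± 0.41 (SE) and limma's adjusted p = 0.00204. Zbed6, a gene inside the span of Zc3h11a, was at 2.42, 3.96 and 6.49 FPKM in F2 to F4, 12.8 and 25.1 in F5 and F6, and 32.5, 31.4 and 26.7 in F7 to F9. All of its heavy values exceeded its light ones, with a difference of 2.63 ± 0.32 (SE), while Zc3h11a was higher by 1.23. Trim44 and Mid1, genes of the TRIM family, were higher by 1.85 and 1.96.

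Genes listed for encoding giant proteins, mainly of chromatin and the nucleus, were spread toward both the middle and the bottom. Of 59 tested, 10 were higher and 6 lower, with a median of 0.11, and 21 peaked in F5 and 18 in F9. The other scalings gave 45 and 53 higher and 0 lower. Tet2, a methylcytosine dioxygenase, was at 13.3, 20.7 and 25.0 FPKM in F2 to F4, 29.7 and 33.9 in F5 and F6, and 40.1, 45.6 and 48.9 in F7 to F9. Each fraction exceeded the one before here too, with a difference of 1.19 ± 0.32 (SE) and limma's adjusted p = 0.0116. Chd2 and Kmt2a were also higher (1.14 and 0.91), whereas Top2a, Dnmt1 and Dync1h1, the heavy chain of cytoplasmic dynein, were lower (-1.31, -0.84 and -1.09), although none of these 3 was called lower in the other scalings and with equal totals Dnmt1 was called higher (0.53). Of 29 genes for the RNA exosome and its nuclear cofactors, 17 were lower and 3 higher, namely Rbm26 (0.95), Zcchc7 (0.94) and Exosc2 (0.68). As deposited, 58.6% were thus lower and 10.3% higher, near the 49.2% and 8.87% of all genes. With equal totals 7 were lower and 11 higher, so the direction of the group depends on scaling. Exosc2, the gene of the tagged subunit, was at 1.37, 1.73 and 2.93 FPKM in F2 to F4, 2.88 and 2.62 in F5 and F6, and 3.12, 4.63 and 3.47 in F7 to F9. Its values were low and its call narrow, with limma's adjusted p = 0.0488 and up to 0.182 with 1 library left out, whereas Exosc3 and Exosc5 were lower at -3.13 and -2.98.

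The gradient of cells treated for 12 h with IAA gave the order of genes in 8 libraries that the first gradient did not use. There, 1305 of 12671 genes were higher in the heavy pool (10.3%) and 2982 lower (23.5%). Leaving out F2, F3, F8 or F9 of that gradient reduced the genes called higher to 709, 344, 358 or 793, and leaving out F3 or F8 reduced those called lower to 1808 or 1751. Of the 954 genes called higher in the untreated gradient and tested at 12 h, 734 were called higher there (76.9%), 943 had a positive difference and 1 was called lower. Of the 5974 called lower, 2796 were called lower (46.8%), 5782 had a negative difference and 1 was called higher. The 2 exceptions were Gm26917, described above, and the microRNA entry Gm24157, at under 10 FPKM in every fraction. Those 734 genes were 56.3% of the genes called higher at 12 h, and the 2796 were 93.8% of those called lower. Across 11710 genes, Spearman's correlation of the differences was 0.928. Positions were not the same in number: the mean fraction was 0.441 higher at 12 h in the median gene, and mt-Rnr1 had its highest value in F5 (3414 FPKM) rather than F4. A shift of the whole gradient and an effect of the treatment cannot be told apart with 1 gradient each, and the difference between the gradients was not tested. Rmrp was at 48594 FPKM in F2, 10181 in F6 and 20213 in F8 at 12 h, so both maxima were present, the second deeper. Rian and Mdm4 had differences of 2.40 and 2.55, Hist1h4f of -5.81 and Rn7sk of -5.74.

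The fractionation of whole untreated cells, with 2 libraries per fraction, showed where the same RNAs lay between chrRNP and cytosol. Nothing says that these libraries came from separate cultures, so the p-values measure only the spread between them. By this measure 2014 of 14069 genes were higher in chrRNP (14.3%) and 8913 lower (63.4%) by limma, and in rescaled libraries 5320 and 4525. Of the genes higher in the heavy gradient fractions, 550 of 987 tested were higher in chrRNP (55.7%) and 225 lower, with a median chrRNP minus cyto difference of 0.59, and 868 were higher (87.9%) and 19 lower in rescaled libraries. Of those lower in the heavy fractions, 232 of 5910 were higher (3.93%) and 4976 lower (84.2%), with a median of -1.74, or 18.4% higher and 57.9% lower in rescaled libraries. Over all 11728 genes in both tables, 12.4% were higher and 70.9% lower, with a median of -1.11, or 37.2% and 37.1% in rescaled libraries. Spearman's correlation of both differences across these genes was 0.630. TEC loci that passed the minimum of the gradient were heavy there and high in chrRNP, with 224 of 232 tested higher and 2 lower, and a median of 1.72. Histones (56 of 56 lower, median -3.05) and oxidative phosphorylation genes (70 of 71 lower, median -2.39) were low in both.

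**Figure D5:**
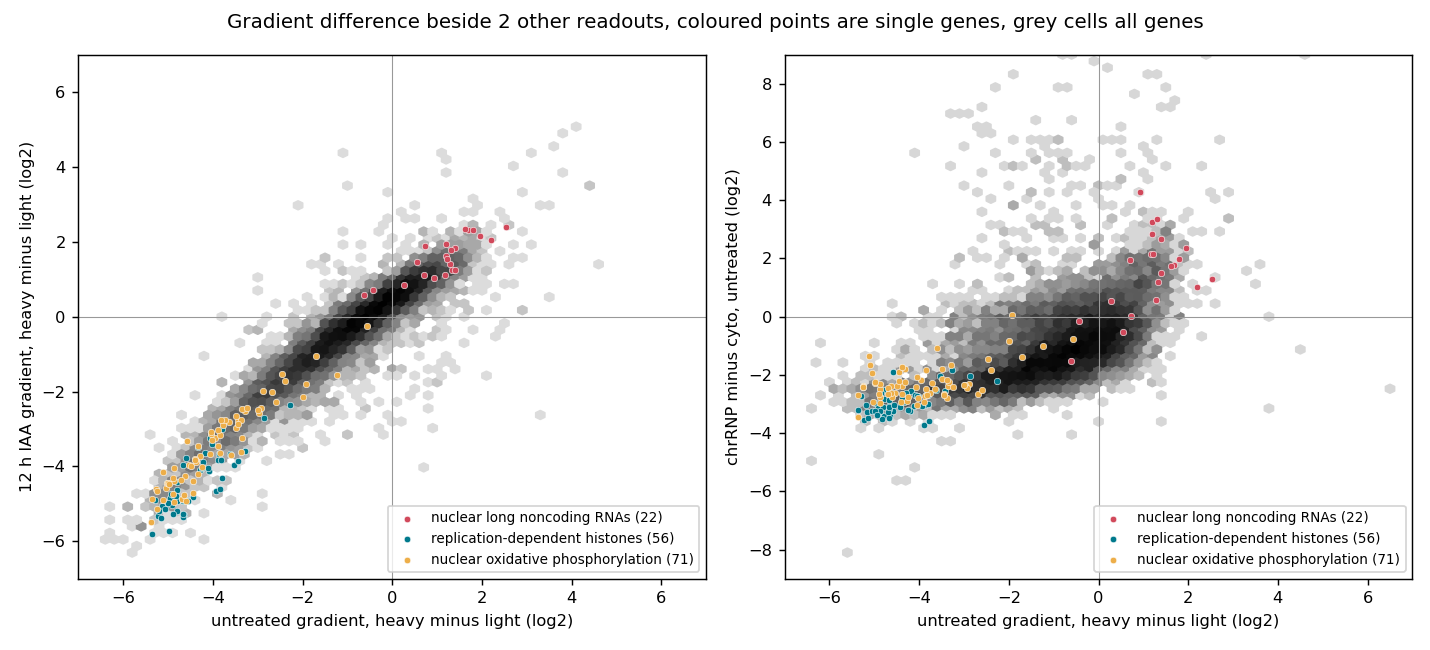
Difference in the 12 h IAA gradient (left, vertical axis, log2) and chrRNP minus cyto difference (right, vertical axis, log2) against the heavy minus light difference of the untreated gradient (horizontal axes, log2), with all genes as grey cells, 3 lists as coloured points, and genes beyond the axes not shown. All 56 histone genes lie at the lower left in both plots, and 17 of 22 nuclear long noncoding RNAs were called higher in chrRNP.

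Some groups were placed differently by the 2 readouts. Genes typed snoRNA were spread over the gradient, with 67 of 239 lower and 25 higher in the heavy pool, but were high in chrRNP, with 120 of 192 higher and 0 lower and a median of 4.58. Nuclear long noncoding RNAs had 17 of 22 higher in chrRNP (median 1.75), whereas the genes with detained introns, heavy in the gradient, had 5 higher and 16 lower of 29 (median -0.58), or 20 and 3 in rescaled libraries, so their direction depends on scaling. Tfcp2l1 was higher in the heavy fractions but lower in chrRNP than in cytosol, at -1.70 with limma's adjusted p = 2.14e-05. The median over all genes tested in both readouts was -1.11, so most genes were lower in chrRNP as deposited. The giant proteins had 23 higher and 24 lower of 58 tested, or 52 and 0 in rescaled libraries. Mitochondrial mRNAs and rRNAs, which peaked in F4 or F5 of the gradient, had 8 of 9 higher in chrRNP (median 1.75). Secreted and membrane proteins had 15 higher and 7 lower of 39 tested, with Spp1 at 0.79, or 38 and 0 in rescaled libraries, although 34 of 40 were lower in the heavy gradient fractions and 15 with equal totals.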

How the data were processed

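RNA was measured by directional, rRNA-depleted RNA-seq in 8 fractions of each gradient (F2 to F9, 1 library a fraction) and in 2 libraries each of untreated chrRNP and cytosol. The authors deposited FPKM per gene; the submitters' processing notes name Cufflinks 2.0.2, TopHat2 2.0.11, bedtools and the build mm10. Per the labels' protocols, 4 ERCC spike-in RNAs were added to each fraction; no source used here says whether the deposited FPKM values use them. Differences were computed here on log2(FPKM + 1), and limma 3.58.1 in R 4.3.3 with an intensity trend and Benjamini-Hochberg adjustment compared F7 to F9 with F2 to F4 in each gradient, and chrRNP with cyto, over all genes that passed a minimum. That minimum was a sum of 8 FPKM over F2 to F9, or 1 FPKM in 2 libraries of the fractionation of cells. Rescaled libraries were divided by the median ratio of each gene to its mean over fractions, and equal totals were set outside 11 short RNA gene types. Loci were paired with a coding gene whose span held them, by annotation on mm10.

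The gene groups and lists, and the rule for named genes, were chosen with earlier results of these data known. The rule took the 10 largest differences each way among well-expressed genes, the 4 highest and 2 most changed members of each list, every polymerase III or spliceosomal RNA on the lists, and the 3 highest genes of each type. Of 122 tested genes named, 52 were outside it and were chosen after their values were seen. These include Gm25395, Snord17, Snord118, Tfcp2l1, Exosc2, Rps12, Rpl9, Enah and n-R5-8s1 among the genes described in full, and otherwise mostly genes named to account for a small count. Depth is unknown and 1 gradient was run per condition, so precision rests on neighbouring fractions alone. Alternatives were another pseudocount, no filter or a stricter one, both scalings, wider pools, each library left out, and a replicate block.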

Additional observations from a re-analysis of the deposited data

How the results depend on the processing

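The number of genes called higher in the heavy fractions, 1101, changed with many settings: it was 4847 with equal totals, 3989 with rescaled libraries, 724 with wider pools (F2 to F5 against F6 to F9), 138 with a minimum sum of 80 FPKM, and 656 to 1235 with 1 library left out. The 6109 called lower became 2944 with equal totals, 2875 with that minimum and 4989 to 6592 with 1 library left out. At 12 h the 1305 higher and 2982 lower became 768 and 1752 without a filter, the higher ones 3345 with rescaled libraries, and 344 to 1303 and 1751 to 3826 with 1 library left out. For chrRNP against cyto, 2014 higher and 8913 lower became 5320 and 4525 with rescaled libraries. A replicate block there gave 2005 and 8918, and since the replicate differences of both fractions correlated at 0.0948 over genes, the numbers were not taken as pairs. Of 23 lists, 16 had a median below that of all genes, and 10 with the minimum of 80. Of 5 groups of coding genes by span, the longest lay 1.69 above the shortest, or 2.24 with a pseudocount of 0.1 and 2.68 with the minimum of 80. Among 122 named genes, counting those called in either setting, the sign flipped with equal totals for Cirbp (0.45), Ddx5 (0.0346), Dnmt1 (0.53), Dync1h1 (0.29), Gm38058 (0.31), Gm7353 (0.14), Gtf2i (0.16), Scarna2 (1.39), Snora33 (1.40), Snord22 (0.11) and Top2a (0.0798). With rescaled libraries it flipped for Cirbp (0.0272), Dnmt1 (0.0993) and Gm38058 (0.0382). Genes called in neither setting that changed sign with equal totals were Rmrp, Gas5, Pabpc1, mt-Rnr2, Rnu11, Rnu12, Rn7s2 and Atp5s, and with rescaled libraries the same except Pabpc1, with Scarna2 and Snora33. Rn7s1 and Rn7s2 flipped with pools of F2 and F3 against F8 and F9 (0.45 and 1.65), and Rn7s2 ran from -1.50 to 1.37 with 1 library left out. Calls of 32 and 34 of the named genes were lost without F3 or F8, and of 35 without a filter. With an unknown depth, no limit from counting can be given for low values.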
